A study of Chlorella sorokiniana and Chromochloris zofingiensis with 12 samples.

Results

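The 97 entries described here are the transfer RNA (tRNA) genes of Arabidopsis thaliana, out of 519 tRNA entries and 893 annotated entries of all kinds in the deposited annotation sheets, whose coordinates span exactly 73 bases. The rule that picks them uses those coordinates alone (build TAIR9, named in the submitters' processing notes) and no count or fold change. The sheets give small RNA reads of 2 species of unicellular green alga, C. sorokiniana (Chlorella sorokiniana, strain NIES-2168) and C. zofingiensis (Chlorella zofingiensis, strain ATCC30412), matched to Arabidopsis RNAs, so an entry stands for the Arabidopsis gene that an algal read resembles and not for a located algal gene. Stress cultures received 100 µmol photons of light and 2% glucose in mid log phase, and normal cultures stayed at 10 µmol photons without the added glucose. All cultures grew first in Bold's Basal Medium, lit continuously, shaken at 30 rpm and kept at 27 °C. Each of the 4 groups (C. sorokiniana stress and normal, C. zofingiensis stress and normal) had 3 libraries. Because the labels do not say whether the 3 came from separate cultures, the p-values measure the spread between these libraries, which may be technical.

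A tRNA carries an amino acid to the ribosome and reads the codon with its anticodon. Its gene is transcribed by RNA polymerase III from 2 internal promoter elements, the A box, which lies in the part that encodes the D arm near the 5′ end, and the B box, which lies in the part that encodes the T arm near the 3′ end. Mature tRNAs are also cut into small fragments from either end or from the anticodon loop, and such fragments are known to accumulate in many organisms under nutrient, oxidative and light stress. Small RNA sequencing reads these fragments and not the intact tRNA, so the values below are levels of tRNA-matching fragments.

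The 97 entries lie on chromosomes 1 to 5, with 24, 9, 21, 20 and 23 entries. They are 11% of the tRNA entries listed on chromosome 1 and 30.8% of those on chromosome 4. A read was counted at every entry it matched, and entries of near-identical sequence therefore carry the same counts. The 97 entries showed 33 patterns of counts over the 12 libraries, 17 of them held by a single entry, and no pattern was shared with a tRNA entry of another length. Patterns that had the same most frequent tag (the commonest read sequence of an entry, given in the sheets) in every library were joined, which left 24 groups, lettered A to X in descending order of mean level. Entries of 1 pattern were spread over the genome: none of the 34 neighbouring pairs of 1 pattern on a chromosome lay within 1000 bases, and the closest pair was 1756 bases apart.

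The groups that the results turn on are named here by their entry of lowest coordinate. Group A holds 9 entries in 3 patterns, led by chromosome 1, 2846536 to 2846608. Group B holds 5 entries in 2 patterns, led by chromosome 1, 18387802 to 18387874, and group C is the single entry at chromosome 5, 3324702 to 3324774. Group D holds 15 entries in 4 patterns on all 5 chromosomes, led by chromosome 1, 2025356 to 2025428. Group E holds 5 entries led by chromosome 1, 23933137 to 23933209, and groups F and G are the single entries at chromosome 3, 23036880 to 23036952 and 22860127 to 22860199. Group H holds 15 entries of 1 pattern, led by chromosome 1, 515494 to 515566. Group I is the single entry at chromosome 3, 7104177 to 7104249. Group J is the single entry at chromosome 5, 4530474 to 4530546, group K holds 15 entries in 4 patterns led by chromosome 1, 309275 to 309347, and group L is the single entry at chromosome 4, 13006234 to 13006306. The amino acid and anticodon of these entries were not analysed here.

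The reads behind the entries were short. The 73-base entries had 69 distinct lead tags over the 12 libraries, 10 to 25 bases long with a median of 16, and a lead tag matched 1 to 48 Arabidopsis loci with a median of 19. Of the 69, 67 (97.1%) ended in A, as did 219 of 229 lead tags (95.6%) of the other tRNA entries. The 7 letters TAGCTCA, part of the A box, were searched on the strand of the tag only and occurred in 20 of 69 lead tags (29%), against 23 of 229 (10%) of the other tRNA entries. The 7 letters GGTTCGA, part of the B box, occurred in 5 of 69 (7.25%), against 27 of 229 (11.8%). Only 3 of the 69 tags also led a tRNA entry of another length. The sequences of the tags themselves are not printed, and whether a tag came from a nuclear, a chloroplast or a bacterial tRNA was not tested.

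TAGCTCA began at base 7 of each tag that led groups A, B and D, except for 1 tag of group A that lacked it and 1 tag of group D in which it began at base 8. Group A was led in the C. sorokiniana libraries by tags of 25 and 23 bases (stress) and of 25 and 14 bases (normal), of which one of the 14-base tags was the start of the 23-base and the 25-base tag. The other 14-base tag differed from it at 2 of 14 bases and lacked the motif. The lead tag held 18.6% to 23.2% of the group's reads in the 3 stress libraries and 27.3% to 33.8% in the 3 normal ones. In C. zofingiensis a 13-base tag led group A in 5 of 6 libraries, and the same 13-base tag led groups D, F and G in some of them. In the second normal library it led 26 of the 97 entries in 9 patterns, with 1556 reads, so the C. zofingiensis values of groups A, D, F and G are not independent of each other.

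Group D was led by 1 tag of 15 bases in all 6 C. sorokiniana libraries and by another 15-base tag, different at 2 of 15 bases, in 2 C. zofingiensis normal libraries. Groups B and C had the same lead tag in each of the 6 C. zofingiensis libraries, in 4 of them a tag of 13 bases. That tag gave 20671 reads in the second stress library, which was 96.3% to 96.4% of the reads of group B there. A different 13-base tag with 31 matching loci led group E in the 3 C. zofingiensis stress libraries, with 1446, 17881 and 41 reads, whereas the 3 normal libraries were led by a tag with 33 loci that holds TAGCTCA, with 23, 1597 and 380 reads.

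The annotated counts of a library, summed over entries and thus counting a read more than once, lay between 2718 and 26102 for C. sorokiniana. For C. zofingiensis they lay between 14601 and 280404. The smallest was the third C. sorokiniana normal library. The second C. zofingiensis stress library stood apart. Its TMM factor, which corrects library size for composition, was 0.182, against 1.43 and 1.62 in the other stress libraries and 0.733 to 2.45 in the normal ones. Its counts differed from those of the other 2 stress libraries by a chi-square of 184 and 240 per degree of freedom, against 12.9 between those 2. No replicate pair agreed within sampling noise, the lowest value being 2.44. Levels are given below as reads per 1000 annotated counts of the pattern with the most reads in a group. Since they are shares, fewer fragments of 1 group cannot be told apart from more of the rest. They show neither the number of cells nor the RNA per cell.

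The 73-base entries made up most tRNA counts in every library. In C. sorokiniana they held 86.1%, 85.2% and 86.8% of tRNA counts in the stress libraries, against 93.5%, 93.8% and 98.1% in the normal libraries. The groups did not overlap, and the mean was 86.0% ± 0.80 in stress and 95.1% ± 2.56 in normal cultures (SD, n = 3 each). The difference of -9.08 percentage points had a two-sided exact permutation p of 0.1, the smallest that 3 against 3 libraries allow. As a share of all annotated counts, which also hold miRNA, rRNA and snoRNA, the means were 75.1% ± 1.59 and 78.5% ± 2.64 with overlapping libraries (two-sided exact permutation p = 0.2). tRNA entries of 72 bases or fewer held 8.13%, 9.68% and 8.89% of tRNA counts in stress and 3.62%, 4.52% and 1.75% in normal libraries.

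**Figure D1:**
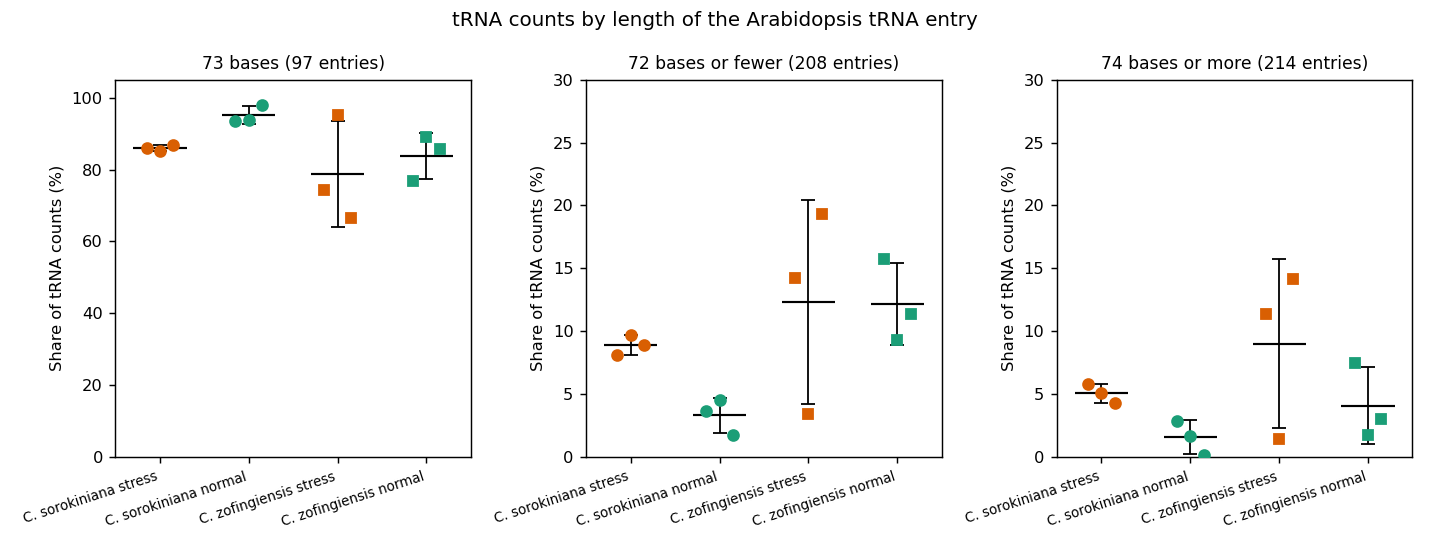
Share of tRNA counts (percent, y axis) held by tRNA entries of 73 bases, of 72 or fewer and of 74 or more in each library, by species and culture. Points are libraries, horizontal lines are means and bars are ± 1 SD (n = 3). In C. sorokiniana the 73-base share lies between 85.2% and 86.8% in stress and between 93.5% and 98.1% in normal cultures, whereas in C. zofingiensis the groups overlap.

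In C. zofingiensis the share of tRNA counts was 74.3%, 95.2% and 66.5% in stress libraries, against 76.8%, 89.0% and 85.6% in normal libraries. The stress libraries enclosed the normal ones. The means were 78.7% ± 14.8 and 83.8% ± 6.29 (SD, n = 3 each), a difference of -5.10 percentage points (two-sided exact permutation p = 0.6). Without the second stress library the difference was -13.3 points, and without the third it was 0.97 points.

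A few groups held nearly all of the 73-base counts. Groups A to F together held 93.4% to 96.8% of them in the 6 C. sorokiniana libraries and 97.2% to 97.7% in the C. zofingiensis normal libraries. In the C. zofingiensis stress libraries they held 78.5%, 98.1% and 60.6%. The highest groups were not the same in both species. Group A had 35.9 to 64.7 reads per 1000 in C. sorokiniana, against 2.36 to 21.2 in the other species. Groups C, E, F and G had at most 1.67 reads per 1000 in any C. sorokiniana library and at least 1.85 in every C. zofingiensis library. In all, 28 patterns (90 entries) were detected in C. sorokiniana and 31 patterns (86 entries) in C. zofingiensis, and 10 patterns (30 entries) were detected in all 12 libraries. Groups R and V, with 11 entries, were read in C. sorokiniana alone, and 5 patterns with 7 entries (groups S, T, U, W and X) in C. zofingiensis alone, at 8 reads or fewer in each library.

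**Figure D2:**
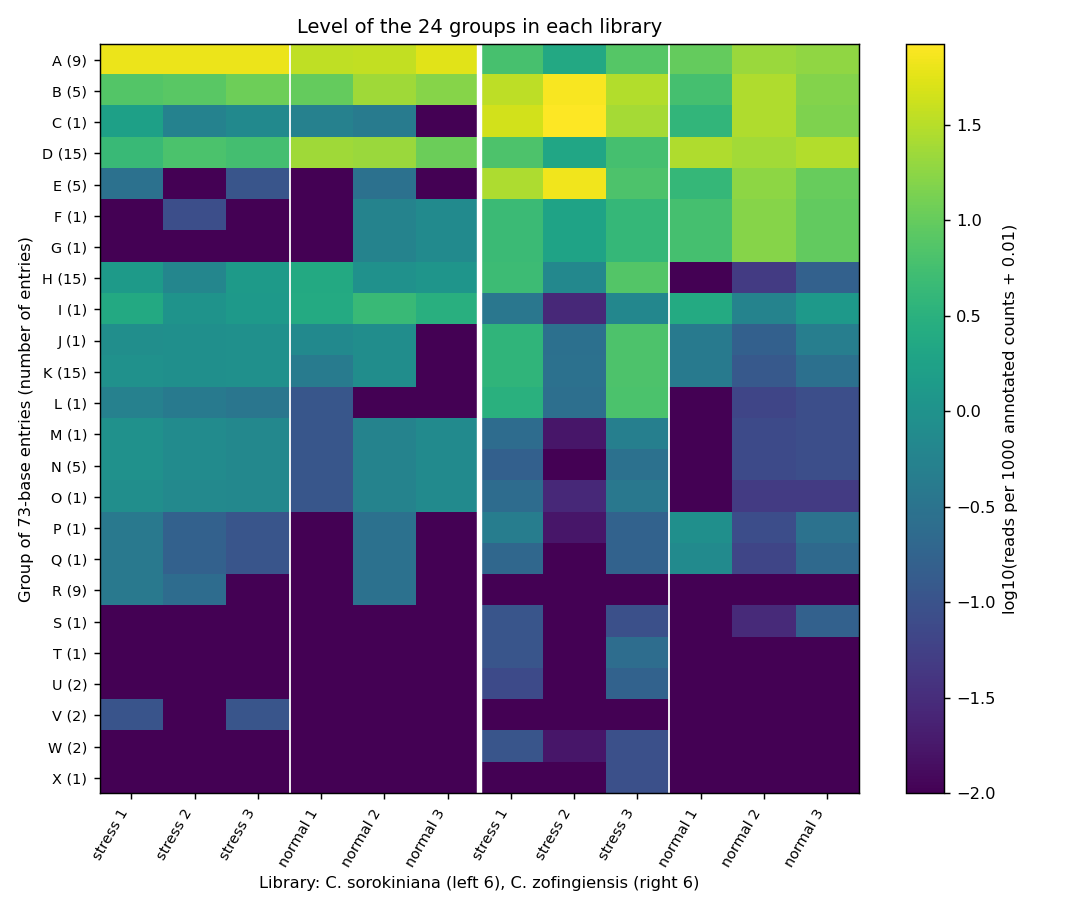
Level of the 24 groups of 73-base entries (rows, with the number of entries in brackets) in the 12 libraries (columns), as log10 of reads per 1000 annotated counts plus 0.01, for the pattern with the most reads in each group. Group A is highest in C. sorokiniana, with 35.9 to 64.7 reads per 1000, and groups B, C and E reach 68.6 to 83.9 in the second C. zofingiensis stress library.

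The first comparison asked which 73-base entries differed between stress and normal cultures of C. sorokiniana. Group D fell under stress, and no other group passed the main test, which did not pair the libraries. With same-numbered libraries paired as a block, group A passed too, higher in stress. Group A, the most abundant, had its 3 stress libraries above its 3 normal ones. By edgeR's quasi-likelihood test over all annotated entries, entered once where counts were identical, 28 of 66 tested rows (42.4%) had a Benjamini-Hochberg adjusted p below 0.05 and were called. Of all rows 18.2% were called higher in stress and 24.2% lower. Of the 73-base entries, 20 patterns in 11 distinct rows passed the filter on low counts, and 1 row (9.09%), the 4 patterns of group D, was called, lower in stress. The median log2 fold change was 0.53 over the 20 patterns and 0.28 over all rows tested. Libraries of the 2 cultures did not overlap in level in 7 of the 11 rows (63.6%), 5 higher and 2 lower, against 53% of all rows tested (33.3% higher and 19.7% lower).

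Group D had 4.57, 6.47 and 5.70 reads per 1000 in the stress libraries, against 22.7, 21.9 and 11.04 in the normal libraries. All 3 stress libraries lay below all normal ones. The mean was 5.58 ± 0.96 in stress and 18.6 ± 6.53 in normal cultures (SD, n = 3 each). On the log2 scale group D fell by 1.86 ± 0.49 (SE), with an adjusted p of 0.0016 by edgeR's quasi-likelihood test. The call was lost without the first normal library (log2 fold change -1.28, adjusted p = 0.0702, edgeR) and without the second stress library (-1.63, adjusted p = 0.0998, edgeR), and it held in the other 11 of 13 alternatives (adjusted p of 2.22e-06 to 0.0452). Its 15-base lead tag gave 59, 74 and 62 reads in stress, or 43.8% to 61.5% of the group's reads, against 410, 274 and 21 reads in normal libraries, or 70% to 93%. In every stress library the lead tag thus held a smaller part of the group's reads than in any normal library.

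Group A had 64.3, 64.4 and 64.7 reads per 1000 in the stress libraries, against 35.9, 36.4 and 56.7 in the normal libraries. The stress libraries were nearly equal and all above the normal ones. The mean was 64.5 ± 0.24 in stress and 43.0 ± 11.8 in normal cultures (SD, n = 3 each). The log2 fold change was 0.53 ± 0.27 (SE), which did not pass (adjusted p = 0.0962, edgeR's quasi-likelihood test). With the replicate number as a block it was 0.54 and passed (adjusted p = 0.0314, edgeR), which raised the patterns called to 7, 3 higher and 4 lower. It passed in 10 of 13 alternatives, among them library totals in place of TMM (log2 fold change 0.90, adjusted p = 4.54e-05, edgeR) and DESeq2's test (1.05, adjusted p = 0.00197). It did not pass with every entry entered as deposited (0.26, adjusted p = 0.579, edgeR), with no filter on low counts (0.70, adjusted p = 0.221) or without the third stress library (0.75, adjusted p = 0.0999). In the authors' deposited table the 9 entries of group A were the only 73-base entries with a false discovery rate (FDR) below 0.05, out of 71 listed. That table gives them a normalized mean of 107.8 in stress and 31.9 in normal cultures, a ratio of 3.38, with an FDR of 2.33e-05. In it 13 of 218 entries (5.96%) had an FDR below 0.05. Its means are on the authors' own scale and not reads per 1000, so its ratio and FDR are not like for like with the values above.

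The remaining high groups of C. sorokiniana varied more. Group B had 7.43, 8.35 and 11.3 reads per 1000 in stress, against 9.89, 22.8 and 16.2 in normal libraries, and the groups overlapped. Its log2 fold change was -0.95 ± 0.47 (SE, adjusted p = 0.0954, edgeR), and 0.049 without the second normal library. Group I, with 2.43, 1.03 and 1.26 reads per 1000 in stress against 2.47, 4.58 and 2.94 in normal libraries, had a log2 fold change of -1.24 ± 0.63 (SE, adjusted p = 0.0962, edgeR). It was called in 2 of 13 alternatives, without the third normal library (-1.33, adjusted p = 0.0227, edgeR) and with every entry entered as deposited (-1.38, adjusted p = 0.0376, edgeR), and was -0.41 without the second normal library and -0.62 without the second stress library. Its stress libraries lay below the normal ones, the first by a small margin. Group H had 1.38, 0.61 and 1.35 reads per 1000 in stress, against 2.42, 0.97 and 1.10 in normal libraries, which overlapped (log2 fold change -0.63 ± 0.47, SE, adjusted p = 0.284, edgeR). Groups C, J and K were at 0.54 to 1.67 reads per 1000 in stress and at 0 to 0.83 in normal libraries, and in each of them every stress library lay above every normal one. Their log2 fold changes were 1.06, 0.25 and 0.58 to 0.63, and none passed (adjusted p of 0.138, 0.724 and at most 0.442, edgeR). With a library left out they ran from 0.62 to 1.74 for C, 0.036 to 0.83 for J and 0.41 to 1.58 for K, and none was called. The third normal library had 0 reads for each of these 3 groups, and at that library's depth of 2718 annotated counts a count of 0 allows up to 3 reads. Groups M, N and O, at 0.68 to 0.95 reads per 1000 in stress and 0.10 to 0.74 in normal libraries, had log2 fold changes of 1.04, 1.04 and 0.93 (adjusted p of 0.217, 0.217 and 0.281, edgeR). Without the second normal library these were 2.20, 2.20 and 2.10, still not called (adjusted p of 0.0688, 0.0688 and 0.0949, edgeR).

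**Figure D3:**
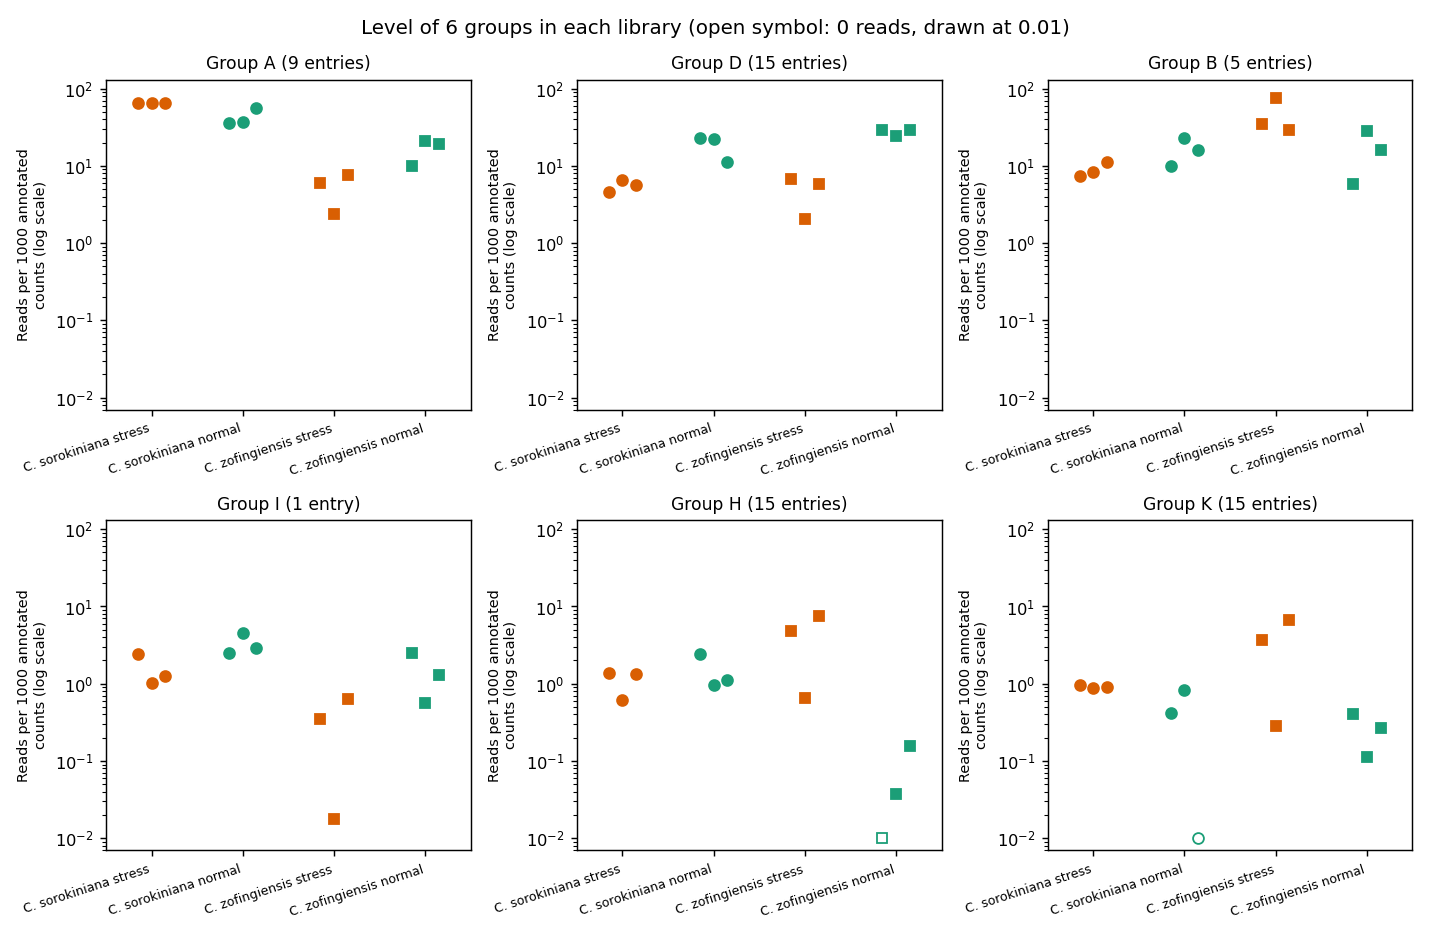
Level of groups A, D, B, I, H and K in each library, in reads per 1000 annotated counts on a log scale, with open symbols for 0 reads drawn at 0.01. Group D is lower in stress than in normal cultures of both species, and group H in C. zofingiensis lies between 0.66 and 7.57 in stress, above the 0 to 0.15 of normal cultures.

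The second comparison asked the same question of C. zofingiensis. Groups H, J, K and L rose under stress, against normal libraries in which none of them exceeded 24 reads, and group I fell. By edgeR's quasi-likelihood test with Benjamini-Hochberg adjustment 39 of the 116 tested rows (33.6%) of all annotated entries were called, 21.6% higher and 12.1% lower. Of the 23 patterns of 73-base entries tested, 8 (34.8%) were called, 7 higher and 1 lower, a share near that of all rows. The median log2 fold change was -0.43 over the 23 patterns and -0.36 over all rows tested. The sign of the median over patterns depended on the processing. It was -0.90 with library totals and -0.39 with DESeq2 size factors. With no filter on low counts it was 2.18, over 31 patterns. With entries of the same lead tag entered once it was 1.15, over 22 patterns that then shared 13 rows. Levels did not overlap for 12 of the 23 patterns (52.2%), 3 higher and 9 lower, against 25% of all rows tested (6.9% higher and 18.1% lower). The 9 lower patterns were those of groups A, D, F and G, which share a lead tag in some of these libraries. They are not separate observations, so the shares are not like for like. Of 337 C. zofingiensis entries in the authors' deposited table, 0 had an FDR below 0.05 and 46 had an unadjusted p below 0.05, 32 of them among the 76 entries of 73 bases. Those 32 are the entries of groups H, J, K and L. Entries of 1 pattern repeat the same reads, so the 32 are few separate observations and not a count of responding entries.

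Group H had 295, 186 and 189 reads in the stress libraries, against 0, 4 and 8 reads in the normal libraries. Per 1000 annotated counts that is 4.85, 0.66 and 7.57 in stress and 0, 0.038 and 0.15 in normal cultures, with no overlap. Group H rose by 5.89 ± 0.74 on the log2 scale (SE, adjusted p = 0.000858, edgeR's quasi-likelihood test). It was called in all 13 alternatives, at 5.31 to 6.54 (largest adjusted p 0.0159), and at 5.85 without the second stress library (adjusted p = 0.00372, edgeR). Its lead tag in the stress libraries was 17 bases long, held TAGCTCA from base 7 and gave 60, 48 and 36 reads, or 19% to 25.8% of the group's reads. In C. sorokiniana a different tag of 16 bases led the group in all 6 libraries.

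Groups J, K and L rose together in C. zofingiensis. The leading pattern of group K, chromosome 3, 5632852 to 5632924, had 224, 80 and 168 reads in stress, against 6, 12 and 14 reads in normal libraries. Every stress library had more reads than every normal one, but per 1000 annotated counts the second stress library, at 0.29, lay among the normal libraries at 0.11 to 0.41. The 4 patterns of group K rose by 3.94 to 3.98 on the log2 scale (largest SE 0.56, adjusted p = 0.000858, edgeR). Group J, with 224, 76 and 168 reads in stress against 6, 16 and 24 in normal libraries, rose by 3.48 ± 0.58 (SE, adjusted p = 0.00206, edgeR). Per 1000 annotated counts its second stress library, at 0.27, likewise lay among the normal libraries at 0.15 to 0.46. Group L had 191, 74 and 163 reads in stress and 0, 6 and 4 in normal libraries, and rose by 5.58 ± 0.79 (SE, adjusted p = 0.000858, edgeR). The 3 groups had the same lead tag in each stress library (18, 22 and 16 bases, with 49, 14 and 45 reads), so they are largely 1 observation. With library totals in place of TMM the calls of groups J and K were lost (3.46 and 3.87 on the log2 scale, adjusted p of 0.141 and 0.0914, edgeR) and that of L was kept (5.97, adjusted p = 0.0159, edgeR). In the other 12 of 13 alternatives J and K were called, with adjusted p of at most 0.0225 and 0.0149.

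Group I fell to 21, 5 and 16 reads in C. zofingiensis stress libraries, against 36, 60 and 68 reads in normal libraries. The read numbers did not overlap, but the levels of 0.35, 0.018 and 0.64 per 1000 in stress and 2.47, 0.56 and 1.32 in normal cultures did. The log2 fold change was -1.90 ± 0.53 (SE, adjusted p = 0.0225, edgeR). It was not called without the first stress library (-1.88, adjusted p = 0.103, edgeR) or with library totals (-2.05, adjusted p = 0.369, edgeR), and it was called in the other 11 of 13 alternatives. Its lead tag in the 3 normal libraries, 16 bases with 18 matching loci, led in none of the stress libraries.

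Group D showed a lower level in C. zofingiensis stress too, without passing the test. It had 6.75, 2.06 and 5.81 reads per 1000 in stress, against 28.6, 24.2 and 29.4 in normal libraries, with means of 4.87 ± 2.48 and 27.4 ± 2.80 (SD, n = 3 each). The libraries did not overlap. With the TMM factors the log2 fold change was -1.86 ± 0.86 (SE, adjusted p = 0.12, edgeR), and with library totals -2.47 (adjusted p = 0.0643, edgeR). DESeq2 called it at -1.78 (adjusted p = 0.0439), the only call among 13 alternatives, whose adjusted p ran up to 0.37. Groups A, F and G, which share a lead tag with group D, were also lower in every stress library than in any normal one. Group A had 2.36 to 7.69 reads per 1000 in stress and 10.00 to 21.2 in normal libraries, and groups F and G had 1.85 to 4.75 in stress and 5.89 to 16.01 in normal libraries. The log2 fold changes of A, F and G were -1.21, -1.07 and -1.08 (adjusted p of 0.281, 0.332 and 0.332, edgeR). Without the second stress library they were -1.98, -1.99 and -1.99, and without the second normal library -0.54, -0.043 and -0.046, none of them called.

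Groups B, C and E had the highest stress means of C. zofingiensis, whereas group D had the highest normal mean, and their fold changes rested on 1 library. Group B had 34.5, 76.5 and 29.2 reads per 1000 in stress, against 5.89, 28.6 and 15.96 in normal libraries. These are levels of the single entry on chromosome 5, for which the third stress library lay just above the second normal library. In the pattern of the other 4 entries it lay just below, so most of group B overlapped. Group C had 45.3, 83.9 and 25.1 in stress and 3.84, 28.8 and 14.7 in normal libraries, and group E had 28.0, 68.6 and 6.73 in stress and 4.04, 18.1 and 10.3 in normal libraries, both with overlap. The log2 fold changes were 2.94 ± 1.96 (SE) for B, 3.11 ± 2.05 (SE) for C and 3.38 ± 2.04 (SE) for E, and none passed (adjusted p of 0.247, 0.247 and 0.216, edgeR). Without the second stress library they were 0.06, 0.28 and -0.084. That library's lead tags, of 13 bases, gave 87.9% to 96.4% of the reads of these groups there, and their part in the fold changes was not tested.

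**Figure D4:**
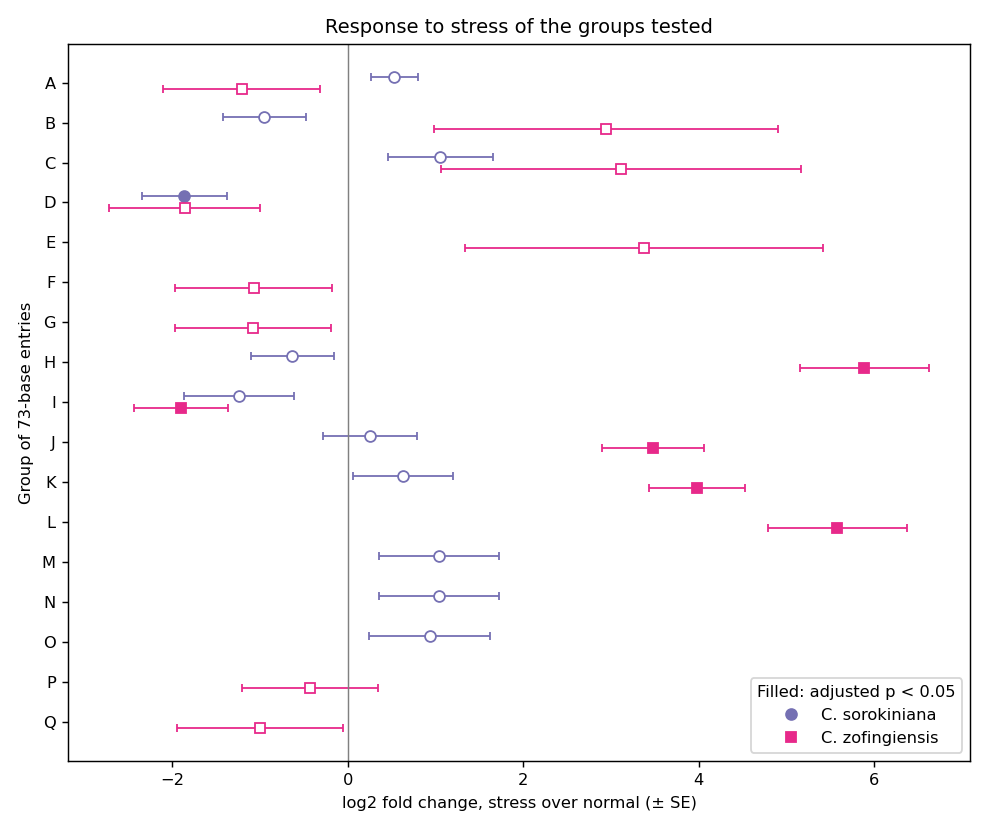
Log2 fold change, stress over normal, with its SE, for each tested group in C. sorokiniana (circles) and C. zofingiensis (squares), by edgeR on all annotated entries, for the pattern with the most reads of each group. Filled symbols have an adjusted p below 0.05. In C. sorokiniana group D alone is filled, at -1.86, and in C. zofingiensis groups H, J, K and L are filled at 3.48 to 5.89 and group I at -1.90.

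The third comparison asked whether the response to stress differed between the species, with the interaction of species and culture fitted over the 12 libraries. Of 110 rows tested, 15 (13.6%) were called by edgeR's quasi-likelihood test with Benjamini-Hochberg adjustment, 8 (7.27%) more positive and 7 (6.36%) more negative in C. zofingiensis. Of the 24 patterns of 73-base entries tested, 6 (25%) were called, each more positive in C. zofingiensis, namely the patterns of groups H, J and K. These patterns are not separate observations. With entries of the same lead tag entered once, 3 of 15 rows of 73-base entries were called, against 16 of 83 of all rows, a like share. The difference of log2 fold changes, C. zofingiensis minus C. sorokiniana, was 6.70 ± 1.01 for group H (SE, adjusted p = 1.04e-05, edgeR), and it was called in all 19 alternatives, at 5.74 to 7.14. Different tags led group H in C. zofingiensis stress and in C. sorokiniana, so its interaction may compare unlike reads that match the same Arabidopsis entries. Whether one tag is part of the other was not tested. For the 4 patterns of group K it was 3.43 to 3.45 (largest SE 0.88, adjusted p = 0.00814, edgeR) and for group J 3.32 ± 0.87 (SE, adjusted p = 0.00817, edgeR). Both were lost without the second C. sorokiniana normal library (2.48 and 2.76, adjusted p of 0.164 and 0.0919, edgeR) and with library totals (2.92 and 2.82, adjusted p = 0.225 for each, edgeR). Without the first C. sorokiniana stress library both were lost too (3.18 and 3.04, adjusted p of 0.0576 and 0.0628, edgeR), and group J was lost without the first C. sorokiniana normal library (2.95, adjusted p = 0.0558, edgeR). For group D the difference was 0.22 to 0.23 (largest SE 1.17, adjusted p = 0.884, edgeR), an interval that holds differences of either sign. It was 2.98 ± 1.66 for group L (SE, adjusted p = 0.216, edgeR), so group L is not shown to respond differently. In C. sorokiniana group L had 11, 10 and 7 reads in stress, against 2, 0 and 0 in normal libraries. Its levels there were higher in stress without overlap, but it did not pass the filter on low counts in that species alone. For group A, which was higher in C. sorokiniana stress and lower in C. zofingiensis stress, the difference was -1.61 (largest SE 1.33, adjusted p = 0.375, edgeR), and it passed with library totals (-2.34, adjusted p = 0.0213, edgeR) and in none of the other 18 alternatives. For groups B and G the differences were 4.09 and 5.39 (adjusted p = 0.0971 for each, edgeR), each called in 4 of 19 alternatives. Group G had 0 reads in every C. sorokiniana stress library and 0, 8 and 2 in the normal ones. It did not pass the filter on low counts in that species alone, so its difference rests on few reads. That of group B was 1.09 without the second C. zofingiensis stress library (adjusted p of at most 0.568, edgeR) and 2.70 without the second C. sorokiniana normal library (adjusted p = 0.219, edgeR).

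The other RNAs of the same sheets are set beside the 73-base entries by counts of called rows. In C. sorokiniana tRNA entries of 72 bases or fewer had 6 of 16 rows called, each higher under stress, and those of 74 or more had 1 of 4, also higher, while the 73-base entries had 1 of 11, lower (edgeR's quasi-likelihood test). Median log2 fold changes there were 0.53 for the 73-base, 0.50 for the shorter and 0.32 for the longer tRNA entries, and the difference between these classes was not tested. Among snoRNA entries 3 of 18 rows were higher and 7 lower, and among miRNA precursors 1 of 8 was higher and 5 lower. In C. zofingiensis 5 of 28 rows of the shorter tRNA entries were called, each higher, and 4 of 17 of the longer ones were higher and 1 lower. Median log2 fold changes in C. zofingiensis were -0.43 for the 73-base, -0.41 for the shorter and 1.01 for the longer tRNA entries. With entries of the same lead tag entered once, the 73-base median was 1.15. It was taken over 22 patterns in 13 rows, so patterns of the same row each counted. The difference between classes was not tested.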

How the data were processed

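Small RNA libraries of total RNA (TRIzol, NEBNext Multiplex Small RNA kit, per the labels' protocols) were sequenced in 12 samples. The authors deposited, per the file headers, sheets of read counts per Arabidopsis entry with the most frequent tag of each entry, a signal (counts divided by the number of mapping loci), tag tables of 100 tags a library (none under 16 bases, so they miss shorter tags of high count), and comparison tables with p-values and FDR. The submitters' processing notes name TAIR9 and DESeq. Which aligner was used is not given in the sources used here. Tag tables served only to look up lead tags.

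An entry absent from a sheet was taken as 0. Counts were tested with edgeR 4.0.16 (R 4.3.3; quasi-likelihood test, TMM, filterByExpr, robust, two-sided, Benjamini-Hochberg) over all annotated entries, entries with identical counts entered once, each species alone, and over 12 libraries for the interaction. The scripts were tested on simulated data. Shares were compared by exact permutation. The smallest two-sided p is 0.1 for 3 against 3 and 0.2 for 3 against 2. SE is the log2 fold change divided by the root of F. Alternatives were other entries, scalings and filters, DESeq2 1.42.0, a replicate block, and leaving out each library. Entering entries of the same lead tag once was chosen after seeing the data.

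Same-numbered stress and normal libraries of C. sorokiniana deviated together (correlations of deviations 0.236, 0.262 and 0.167). The highest correlation between libraries of unlike numbers was 0.075. The numbers, which come from the labels, were therefore taken to pair the C. sorokiniana libraries in the replicate block. This choice rests on the same counts as the tests, and the labels do not say what a number shares. The main tests compared the cultures without this pairing. Patterns were named if called, among the 6 of highest mean, the 3 of smallest p or the 5 with most entries, if called in the authors' table, or if their response differed between species. Members, lists and tests were chosen with earlier results of these data known. Floors of 3 reads cover counting error only. The SE and intervals of fold changes also hold the spread between these libraries.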

Additional observations from a re-analysis of the deposited data

Results flagged for a closer look

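For 6 patterns the response to stress differed between the species by the interaction test (edgeR's quasi-likelihood test with Benjamini-Hochberg adjustment, 12 libraries). The difference of log2 fold changes, C. zofingiensis minus C. sorokiniana, was 6.70 for group H, from chromosome 1, 515494 to 515566 (adjusted p = 1.04e-05). The lead tag of group H in C. zofingiensis stress was not the one in C. sorokiniana, so unlike reads may be compared there, which was not tested. For the patterns of group K it was 3.45 for that of chromosome 1, 309275 to 309347, 3.45 for 17731841 to 17731913, 3.44 for 7016516 to 7016588 and 3.43 for that of chromosome 3, 5632852 to 5632924 (adjusted p = 0.00814 each). For group J it was 3.32 (adjusted p = 0.00817). In C. zofingiensis the 5 patterns of groups J and K had 1 lead tag in common in each stress library, so they are not separate observations. Groups of 3 libraries are too small for a test of single outlying libraries.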

How the results depend on the processing

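Groups H and L in C. zofingiensis were called in all 13 alternatives tried there. The count of 4 called patterns in C. sorokiniana, all lower, became 7 with every entry entered as deposited (7 lower), and 7 (3 higher, 4 lower) with DESeq2 size factors in edgeR, library totals, DESeq2's test, the replicate block or entries of the same lead tag entered once. It was 3 to 8 when a library was left out, with 3 higher and 0 lower without the first normal or the second stress library. The 8 called in C. zofingiensis became 2 with library totals, which moved the median log2 fold change of all rows tested to -0.89, against -0.36, and 7 to 8 with a library left out. DESeq2 called 12. In C. sorokiniana the median was 0.63 with library totals and 0.78 with DESeq2 size factors, against 0.28. The 6 interaction calls became 4 with library totals (1 more positive, 3 more negative) and 1 to 8 with a library left out, 1 without the second C. sorokiniana normal or the first C. sorokiniana stress library. They became 9 with no filter on low counts. The cause of these changes was not tested.

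The share difference in C. zofingiensis ran from -13.3 to 0.97 points with a library left out, and that in C. sorokiniana from -9.89 to -7.60. In the replicate block the sign-flip exact p was 0.25 in C. sorokiniana, the smallest for 3 pairs, and 0.75 in C. zofingiensis. The numbers of C. zofingiensis libraries were not taken as pairs. Their correlations of deviations were 0.633, 0.694 and 0.012, against up to 0.324 between unlike numbers. The block called 8 patterns there. It called 9 in the interaction and changed no call given in the report other than group A in C. sorokiniana and groups B and G in the interaction, which it called. Signs turned for values that were not called. The interaction of group D was -0.097 to -0.11 with DESeq2 size factors (-0.097, -0.099, -0.099 and -0.11 over its patterns), -0.091, -0.093, -0.094 and -0.099 with DESeq2, -0.83 or -0.84 with library totals, -0.50 with lead tags entered once, and -0.55 to 0.57 (-0.56 to 0.56 in the pattern of chromosome 4) with a library left out. With a library left out the C. sorokiniana value ran from -0.97 to 0.049 for group B and from -0.83 to 0.49 for group H, that of group E in C. zofingiensis from -0.084 to 4.57, and the interactions from -2.13 to 4.72 (E), -1.20 to 3.41 (L) and -0.66 to 3.43 (C). The low depth of the third C. sorokiniana normal library, 2718 counts, limits the low groups there.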
